A study of Mus musculus with 12 samples.

Results

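The genes for 7 CC chemokines (Ccl2, Ccl3, Ccl4, Ccl5, Ccl6, Ccl7 and Ccl9) and 2 of the receptors that monocytes carry for them (Ccr1 and Ccr2) were followed in bone marrow monocytes and macrophages of mice with and without a leukaemic graft. They were taken by gene symbol or current alias, 9 of the 30792 genes named on the array, and each had 1 transcript cluster, the unit for which the array gives 1 value. RNA had been measured on Clariom D whole-transcriptome mouse arrays, 1 per mouse, in cells purified magnetically from bone marrow. All 12 mice, controls included, were Rag2-/-gamma c-/- on a BALB/c background, a strain without T, B and natural killer cells that accepts human cells. The groups were mice given MEC1 cells intravenously and examined at 31 days (aged 13 weeks), mice without MEC1 at 31 days (13 weeks), mice with MEC1 at 21 days (11 weeks) and mice without MEC1 at 21 days (11 weeks), with 3 mice in each. MEC1 is a line of human B cells from a chronic lymphocytic leukaemia, so that the graft is 1 cell line in a host with no lymphocytes of its own. The days stand for a late and an early stage of the disease, and the question was what changed in the host cells at each.

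CC chemokines are small secreted proteins with a pair of adjacent cysteines, and they guide leukocytes through G protein-coupled receptors. CCL2 and CCL7 act on CCR2, which lets inflammatory monocytes leave the marrow for the blood. CCL3, CCL4 and CCL5 are inflammatory chemokines, of which CCL3 and CCL5 act on CCR1, and CCL6 and CCL9 are mouse chemokines of myeloid cells that act on the same receptor. Their genes lie side by side in clusters on mouse chromosome 11. In the RefSeq annotation Ccl2 stood beside Ccl7, and a second run held Ccl5, Ccl9, Ccl6, Ccl3 and Ccl4 in that order. The annotated ranges of Ccl3 and Ccl4 overlapped, with strand left out of account. Whether probes of one pick up transcripts of the other was not tested. Ccr1 and Ccr2 lay on chromosome 9.

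Promoter sequences were found in the RefSeq table (GRCm38.p6) for 5 of the 9 genes: Ccl3, Ccl6, Ccl9, Ccr1 and Ccr2. Those of Ccl6, Ccl9 and Ccl3 are shown because these 3 genes of 1 run fell on both days, and Ccl3 had the largest change of the 8 tested genes at 31 days. Each is given from 250 bases before to 50 bases after the annotated start, 5′ to 3′ on the minus strand, on which all 3 genes lie. They cover chr11:83593038-83593337 (Ccl6), chr11:83578587-83578886 (Ccl9) and chr11:83649329-83649628 (Ccl3). Capitals mark the stretch that aligned between Ccl6 and Ccl9, and in Ccl3 the letters ACTTCC.
Ccl6: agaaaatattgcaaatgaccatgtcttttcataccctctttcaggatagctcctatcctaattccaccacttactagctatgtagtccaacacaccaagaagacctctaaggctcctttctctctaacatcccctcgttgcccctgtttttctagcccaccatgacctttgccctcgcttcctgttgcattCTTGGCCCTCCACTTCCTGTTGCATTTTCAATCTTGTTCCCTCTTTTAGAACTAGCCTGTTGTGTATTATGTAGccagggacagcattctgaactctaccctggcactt
Ccl9: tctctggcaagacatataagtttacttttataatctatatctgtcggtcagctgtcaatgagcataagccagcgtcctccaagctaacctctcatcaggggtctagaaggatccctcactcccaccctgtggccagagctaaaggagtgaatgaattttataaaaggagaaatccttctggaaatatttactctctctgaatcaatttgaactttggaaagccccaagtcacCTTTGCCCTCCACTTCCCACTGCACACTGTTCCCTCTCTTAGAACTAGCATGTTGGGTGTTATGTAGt
Ccl3: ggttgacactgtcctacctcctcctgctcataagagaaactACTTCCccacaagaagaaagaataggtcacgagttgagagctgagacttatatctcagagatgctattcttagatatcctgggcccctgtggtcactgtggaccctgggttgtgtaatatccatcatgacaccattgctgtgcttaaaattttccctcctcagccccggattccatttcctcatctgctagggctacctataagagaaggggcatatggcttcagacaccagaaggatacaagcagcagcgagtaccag
The aligned stretch covered 74 bases of the Ccl6 promoter and 67 of the Ccl9 promoter, with 58 identical bases in 74 columns (78.4%). ACTTCC, whose reverse complement holds the GGAA core that factors of the ETS family such as PU.1 bind, was searched on both strands. It began at -48 from the start in Ccl6, at -7 in Ccl9 and at -209 in Ccl3, and these letters were not in the windows of Ccr1 and Ccr2. Of all 32851 promoters in the table, 23.8% held it, so that the match is a common one. TATAAA (13.6% of promoters) and TGANTCA (7.81%), an AP-1 type motif that reads alike on both strands, were found in Ccl9 alone of the 5, at -92 for TATAAA on the forward strand and -53 for TGANTCA. The NF-kB consensus (8.46%) was found in Ccl9 at -35 and in Ccr1 at -74. These are matches of letters and not tested sites.

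The arrays of MEC1 mice and of control mice differed in array-wide measures. Values are log2 intensities. Hybridisation controls, bacterial transcripts added in fixed amounts, lay between 12.15 and 13.18 in MEC1 mice, against 10.47 to 10.70 in control mice, at 31 days, and between 11.80 and 12.04 against 10.71 to 10.87 at 21 days. Poly-A controls, which are added before labelling, were higher in MEC1 mice by 1.08 at 31 days and 0.64 at 21 days. The median of 30 mitochondrial transcripts was 6.13 to 7.87 in MEC1 mice and 8.64 to 9.20 in control mice at 31 days, and 7.75 to 8.71 against 8.83 to 9.18 at 21 days. In each of these measures the groups did not overlap on either day (exact permutation p = 0.1, two-sided, the smallest that 3 against 3 mice allow). MEC1 31 d replicate 3 stood apart with the highest hybridisation controls and the lowest mitochondrial median, and counts and calls that moved without it are given both ways. Csf1r, which encodes the CSF1 receptor of macrophages, averaged 10.21 ± 0.82 with MEC1 and 11.72 ± 0.13 without at 31 days, and 10.70 ± 0.31 against 11.69 ± 0.24 at 21 days (SD, n = 3 each). Lyz2, which encodes lysozyme, averaged 17.61 ± 1.26 against 19.33 ± 0.06 at 31 days and 18.60 ± 0.26 against 19.34 ± 0.04 at 21 days. Not all identity genes were bright: Mertk averaged 5.18 ± 0.30 with MEC1 and 3.48 ± 0.10 without at 31 days, and 3.86 ± 0.21 against 3.49 ± 0.05 at 21 days, and only its 31 day level with MEC1 lay above the range of the array medians, 3.80 to 4.40.

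Most of these chemokine genes had lower levels in monocytes and macrophages of MEC1 mice. At 31 days Ccl2, Ccl3, Ccl4, Ccl6, Ccl9 and Ccr2 fell and none of the 9 rose, while at 21 days Ccl3, Ccl6 and Ccl9 fell. The falls at 31 days ranged from 13.1-fold for Ccl3 to 1.6-fold for Ccl4. Of the 9 genes, 8 passed the filter on dim transcripts (above the median of the array on at least 3 arrays), and Ccl7 did not. The 6 that fell at 31 days are to be read against 21.1% of all 37240 tested transcript clusters that fell on that day (limma, adjusted p under 0.05; 43.8% changed in either direction), and the 3 that fell at 21 days against 2.51% (4.34% in either direction). The median log2 change of the 8 tested genes was -1.31 at 31 days and -1.07 at 21 days, beside 0.04 and 0.02 for all tested clusters. Bright clusters moved further down than dim ones on the arrays of MEC1 mice, so each gene was also set beside the clusters within 1 log2 unit of its control mean. Of these, the share that fell at 31 days was 57.3% for Ccl2, 50.4% for Ccl3 and 15% for Ccl4. It was 50.9% for Ccl6, 57.3% for Ccl9 and 47.1% for Ccr2, so a fall was common at the level of the bright genes. At 21 days it was 2.94% for Ccl3, 2.62% for Ccl6 and 7.13% for Ccl9. In a bulk sample, fewer cells of a type and less RNA per cell cannot be told apart.

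**Figure D1:**
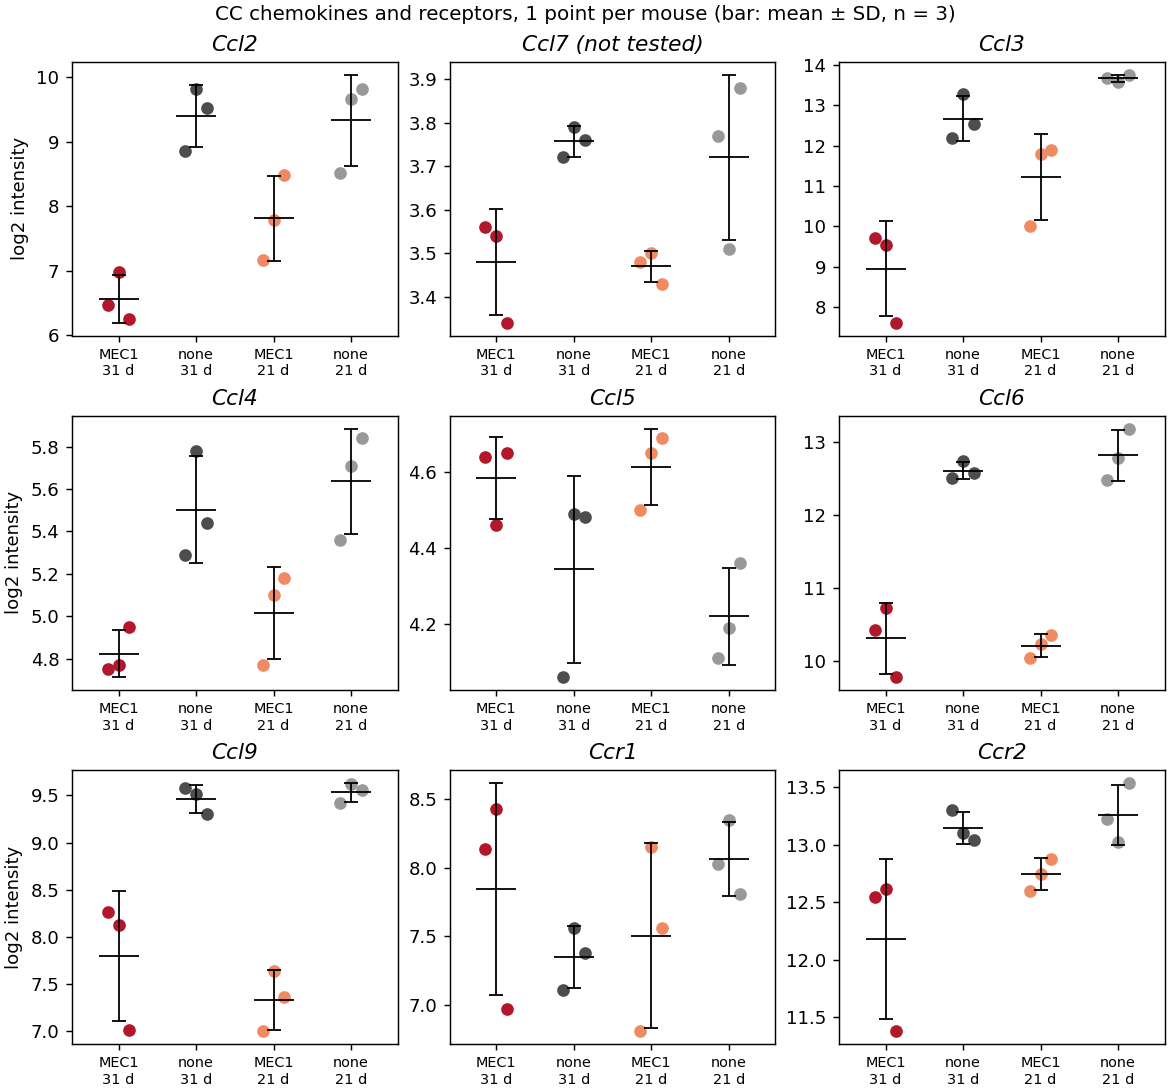
Log2 intensity (vertical axes, each with a range of its own) of the 9 genes in every mouse, by group (horizontal axes); points are mice and bars the mean with SD of 3 mice. The MEC1 and control points of Ccl2, Ccl3, Ccl4, Ccl6, Ccl7, Ccl9 and Ccr2 do not overlap on either day. Those of Ccl5 overlap at 31 days only, and those of Ccr1 on both days. The share of all clusters without overlap was not counted.

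Among the ligands of CCR2, Ccl2, the main chemoattractant of inflammatory monocytes, had log2 intensities of 6.46, 6.97 and 6.24 in the 3 MEC1 mice at 31 days, against 8.86, 9.81 and 9.52 in control mice. At 21 days it had 7.17, 7.78 and 8.49 in MEC1 mice, against 8.52, 9.66 and 9.82 in control mice. Every MEC1 mouse lay below every control mouse of its day, although the gap at 21 days was only that between 8.49 and 8.52. At 31 days Ccl2 fell by 2.84 on the log2 scale (SE 0.42, 7.16-fold, limma adjusted p = 0.000929), where clusters of like level had a median change of -0.98. The change of -1.52 at 21 days (SE 0.42) did not pass, with an adjusted p of 0.0647. It passed when control 21 d replicate 1 was left out (log2 change -1.93, adjusted p = 0.0411) or MEC1 21 d replicate 3 (-1.86, adjusted p = 0.0306), and in no other such fit. Ccl7, the neighbour of Ccl2 that also acts on CCR2, was dim, above the array median on 1 of 12 arrays, and was not tested. Its group means were 3.48 ± 0.12 with MEC1 and 3.76 ± 0.04 without at 31 days, and 3.47 ± 0.04 and 3.72 ± 0.19 at 21 days (SD, n = 3 each).

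The receptor gene Ccr2 stayed bright in all groups, at the percentile 97.2 or higher of every array. It had 12.55, 12.62 and 11.38 in MEC1 mice and 13.30, 13.10 and 13.04 in control mice at 31 days. At 21 days the values were 12.60, 12.75 and 12.88 with MEC1 and 13.22, 13.02 and 13.54 without. The groups did not overlap on either day, and MEC1 31 d replicate 3 was the lowest of all 12. At 31 days Ccr2 fell by 0.96 (SE 0.29, 1.95-fold, adjusted p = 0.0224), next to a median of -0.98 for clusters of like level. Without MEC1 31 d replicate 3 the log2 change was -0.56 (adjusted p = 0.0413). The call did not hold with quantile normalization (-0.55, adjusted p = 0.0712), with only the 6 arrays of the day (-0.96, adjusted p = 0.0626), without control 31 d replicate 1 (-0.89, adjusted p = 0.0654) or without control 31 d replicate 2 (-0.99, adjusted p = 0.0544). The change of -0.52 at 21 days (SE 0.29) did not pass (adjusted p = 0.305).

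Ccl3, which encodes the macrophage inflammatory protein MIP-1 alpha, had the largest change of the 8 tested genes at 31 days. It stood at 9.71, 9.55 and 7.61 in MEC1 mice, against 12.19, 13.27 and 12.53 in control mice. The 21 day values were 10.00, 11.80 and 11.88 in MEC1 mice and 13.67, 13.56 and 13.75 in control mice. All 6 MEC1 mice were thus below all 6 control mice. Ccl3 fell by 3.71 at 31 days (SE 0.60, 13.1-fold, adjusted p = 0.00142), and by 3.03 without MEC1 31 d replicate 3 (adjusted p = 0.0035), where clusters of like level had a median of -1.01. At 21 days it fell by 2.43 (SE 0.60, 5.4-fold, adjusted p = 0.0473; median of like clusters -0.23). That call rested close to the threshold: it held in 3 of the 12 fits that each left out 1 array, those without MEC1 21 d replicate 3 (adjusted p = 0.0357), MEC1 31 d replicate 1 (0.049) or MEC1 31 d replicate 3 (0.0178), while in the fits without each of the 9 other arrays the log2 change was between -2.72 and -1.82 and the adjusted p between 0.0582 and 0.144.

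Ccl4, which lies beside Ccl3 and encodes MIP-1 beta, changed less and on dimmer probes. It had 4.75, 4.77 and 4.95 in MEC1 mice and 5.29, 5.78 and 5.44 in control mice at 31 days, with array medians of 3.80 to 4.40 over all arrays. At 21 days it had 4.77, 5.10 and 5.18 with MEC1 and 5.36, 5.71 and 5.84 without, again with no overlap. It fell by 0.68 at 31 days (SE 0.19, 1.6-fold, adjusted p = 0.015), beside a median of -0.11 for clusters of like level. Leaving out control 31 d replicate 2 ended that call (-0.54, adjusted p = 0.0631). At 21 days the change was -0.62 (SE 0.19, adjusted p = 0.0834).

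Ccl5, the chemokine RANTES that T and natural killer cells make in quantity, was dim in all groups. Its values were 4.64, 4.46 and 4.65 in MEC1 mice and 4.06, 4.49 and 4.48 in control mice at 31 days. At 21 days they were 4.50, 4.65 and 4.69 against 4.11, 4.19 and 4.36. The groups overlapped at 31 days and not at 21 days. Neither log2 change passed: 0.24 at 31 days (SE 0.16, adjusted p = 0.221) and 0.39 at 21 days (SE 0.16, adjusted p = 0.162). The sign at 31 days followed the scaling, with -0.10 after quantile normalization and -0.19 after centring on the array median, and clusters of like level had a median change of 0.38.

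Ccl6 and Ccl9, the pair of myeloid chemokines that act on CCR1 in mice, fell on both days. Ccl6 stood at 10.43, 10.73 and 9.78 in MEC1 mice, against 12.51, 12.73 and 12.57 in control mice, at 31 days. It stood at 10.04, 10.24 and 10.36 with MEC1 and 12.48, 12.78 and 13.18 without at 21 days. No MEC1 mouse came within 1 log2 unit of a control mouse. The falls were 2.29 at 31 days (SE 0.25, 4.89-fold, adjusted p = 0.000336) and 2.60 at 21 days (SE 0.25, 6.06-fold, adjusted p = 0.00112), where clusters of like level had medians of -1.02 and -0.29.

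Ccl9 had 8.26, 8.13 and 7.01 in MEC1 mice and 9.58, 9.52 and 9.30 in control mice at 31 days. At 21 days the values were 7.0, 7.64 and 7.36 against 9.42, 9.62 and 9.56, and the groups did not overlap on either day. Ccl9 fell by 1.67 at 31 days (SE 0.29, 3.17-fold, adjusted p = 0.00213) and by 2.20 at 21 days (SE 0.29, 4.59-fold, adjusted p = 0.0051), beside -0.98 and -0.41 for clusters of like level. All 12 fits that left out 1 array kept the calls of Ccl6 and Ccl9 on both days, with adjusted p up to 0.00786 for Ccl6 and 0.0268 for Ccl9. Their promoters share the aligned stretch printed above (78.4% identical), and any part of it in these changes was not tested. The other pairs of the 5 promoters also gave local alignments, such as Ccl6 with Ccr2 (57.2% identical).

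Ccr1, the receptor shared by CCL3, CCL5, CCL6 and CCL9, did not pass on either day. Its values were 8.14, 8.43 and 6.97 in MEC1 mice and 7.11, 7.56 and 7.38 in control mice at 31 days. At 21 days they were 6.81, 8.15 and 7.56 against 8.03, 8.35 and 7.81. At 31 days 2 MEC1 mice lay above all control mice and the third, replicate 3, below them. The log2 change was 0.50 at 31 days (SE 0.39, 95% confidence interval -0.37 to 1.37, adjusted p = 0.315) and -0.56 at 21 days (SE 0.39, interval -1.43 to 0.31, adjusted p = 0.405). Clusters of like level had medians of -0.69 at 31 days and -0.42 at 21 days. With quantile normalization the change at 31 days was 1.12 and passed (adjusted p = 0.0261), and without MEC1 31 d replicate 3 it was 0.93 (adjusted p = 0.0625).

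**Figure D2:**
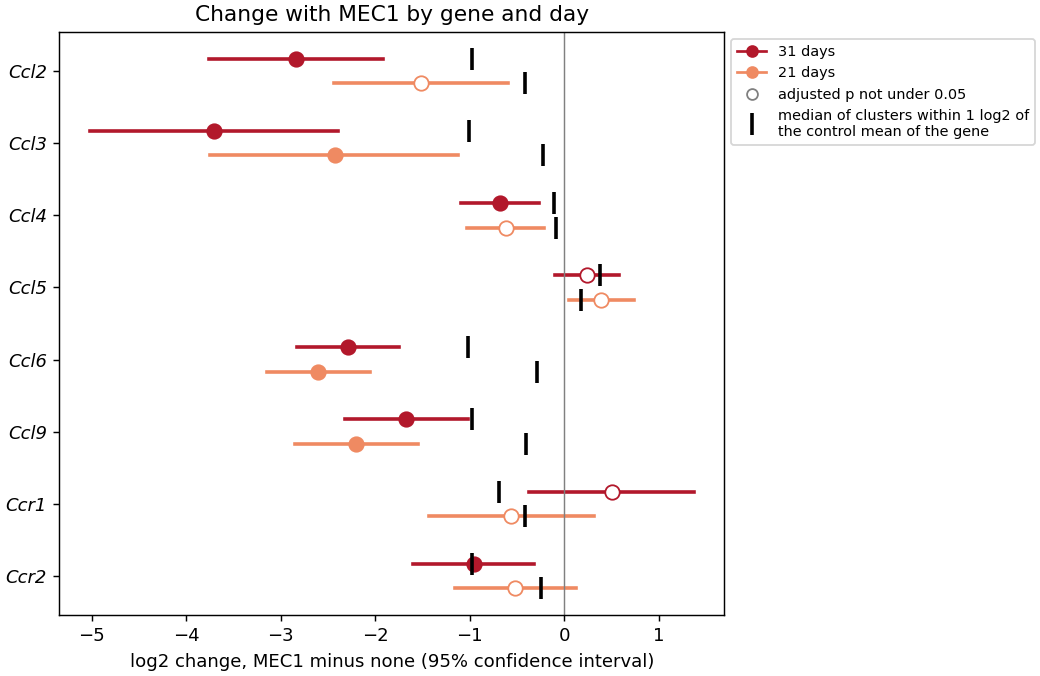
Log2 change with MEC1 (horizontal axis, MEC1 minus no MEC1, with 95% confidence interval) of the 8 tested genes (vertical axis) at 31 and 21 days; filled points passed, and black marks show the median of clusters within 1 log2 unit of the control mean of the gene. Ccl3 is lowest at 31 days (-3.71) and Ccl6 at 21 days (-2.60), while the mark lies at the point of Ccr2 at 31 days (-0.96 beside -0.98).

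Between the days, no gene of the 9 passed. The difference between the effect of MEC1 at 31 days and that at 21 days was -1.32 for Ccl2 (SE 0.59, adjusted p = 0.388), the only one of the 8 with an unadjusted p under 0.05, and -1.27 for Ccl3 (SE 0.84, adjusted p = 0.501). It was 0.31 for Ccl6 (adjusted p = 0.69), 0.53 for Ccl9 (adjusted p = 0.561) and 1.05 for Ccr1 (SE 0.56, adjusted p = 0.431). The 0 calls of 8 stand beside 0.00269% of all tested clusters. Among MEC1 mice, 31 days against 21 days gave log2 changes of -2.27 for Ccl3 (SE 0.60, adjusted p = 0.127) and -1.26 for Ccl2 (SE 0.42, adjusted p = 0.181), both with groups that did not overlap and an unadjusted p under 0.05, and 0.226% of clusters passed (0.137% higher, 0.0886% lower). Among mice without MEC1, 0.00806% of clusters passed; Ccl3 had a change of -1.0 (SE 0.60, adjusted p = 0.907), Ccr1 of -0.71 (adjusted p = 0.876), and the other 6 lay between -0.21 and 0.12, none with an unadjusted p under 0.05. The comparisons share the same arrays, and their values are given side by side for that reason.

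Markers of monocytes and macrophages moved with these falls. Of 9 such genes with 1 cluster, 6 fell and 1 rose at 31 days (5 and 1 without MEC1 31 d replicate 3), with a median log2 change of -1.51, and 1 fell at 21 days (5 without that array), with a median of -0.99. Of all tested clusters 21.1% fell at 31 days and 2.51% at 21 days. Among bright clusters the share at 31 days was higher, 57.3% within 1 log2 unit of the control mean of Ccl9 and 47.1% for Ccr2. Their mean level lay between 9.40 and 10.92 in MEC1 mice and between 11.33 and 11.38 in control mice at 31 days, and between 10.44 and 10.92 against 11.28 to 11.41 at 21 days. Cd68, a lysosomal protein of macrophages, changed by -2.49 at 31 days (adjusted p = 0.00206), while Mertk, a receptor for engulfing dead cells, rose by 1.70. In control mice Mertk (at most 3.59) lay below all array medians (3.80 to 4.40). It thus passed the filter on dim transcripts only through MEC1 arrays. A rise in Mertk was favoured in advance, and the 1 risen gene of this list is no evidence of direction. Each chemokine gene was then expressed relative to the mean of these 9 markers on the same array, a measure chosen after their values had been seen. On that scale Ccl3 differed by -2.67 at 31 days and -1.83 at 21 days, Ccl6 by -1.26 and -2.0, and Ccl9 by -0.63 and -1.60, with groups that did not overlap on either day (exact permutation p = 0.1, the smallest possible). Ccl2 differed by -1.81 at 31 days (exact p = 0.1) and by -0.92 at 21 days, where the groups overlapped (exact p = 0.2). Ccr2 differed by 0.07 at 31 days and 0.09 at 21 days, with overlapping groups (exact p = 0.7 each), and Ccr1 by 1.53 at 31 days without overlap (exact p = 0.1) and by 0.05 at 21 days with overlap (exact p = 1). Ccl4, which fell at 31 days on the plain scale, differed by 0.35 at 31 days (exact p = 0.8) and by -0.02 at 21 days (exact p = 0.9), with overlapping groups. Ccl5 differed by 1.27 at 31 days and 1.0 at 21 days, and the untested Ccl7 by 0.76 and 0.35, without overlap (exact permutation p = 0.1 each). The marker mean itself was lower in MEC1 mice on both days. Any gene that falls less than the markers, or stays level near the array median as dim genes do, thus gets a positive difference. The positive values on this scale are therefore no sign of a rise.

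Markers of other cells that a marrow purification can hold moved as well. Their counts are to be read against all tested clusters, of which 21.1% fell and 22.6% rose at 31 days. At 21 days 2.51% fell and 1.83% rose. Brightness matters too: at 31 days 57.3% of clusters near the control mean of Ccl9 fell, and 35.1% of those near dim Ccl5 rose. All 8 erythroid genes fell at 31 days and 3 fell at 21 days, with mean levels of 5.28 to 5.96 in MEC1 mice against 10.79 to 11.43 in control mice at 31 days and 6.39 to 9.76 against 9.67 to 11.41 at 21 days. Basophil and mast cell genes, another source of CCL3 in marrow, fell in 7 of 8 at 31 days (4 without MEC1 31 d replicate 3) and in 0 of 8 at 21 days, with mean levels of 7.15 to 8.17 against 8.75 to 9.43 at 31 days and 7.54 to 8.43 against 8.21 to 8.97 at 21 days. The basophil protease gene Mcpt8 changed by -2.71 at 31 days (adjusted p = 0.00425) and by -0.63 at 21 days (adjusted p = 0.503). Dendritic cell genes fell in 5 of 7 at 31 days and 2 of 7 at 21 days, among them Cd209a, which fell by 3.72 and 3.58, with mean levels of 5.48 to 5.78 against 7.09 to 7.60 and of 5.81 to 6.53 against 6.98 to 7.41. Neutrophil genes fell in 4 of 10 and rose in 0 at 31 days, with a median log2 change of -0.70, and 0 of 10 passed at 21 days. Without MEC1 31 d replicate 3 the 31 day counts were 3 fallen and 2 risen (S100a8 and S100a9, named after their values were seen), with a median of 0.04. The neutrophil list had mean levels of 11.98 to 14.43 against 14.50 to 14.86 and of 13.71 to 14.23 against 13.40 to 14.47. Of 5 tested B cell genes 4 rose at 31 days (2 without MEC1 31 d replicate 3) and 2 at 21 days, led by the B cell factor Pax5 at 2.23 and 1.34, with mean levels of 5.15 to 5.76 against 4.38 to 4.47 and of 4.85 to 5.25 against 4.30 to 4.51. T and natural killer cell genes, which mark the usual makers of CCL5, rose in 3 and fell in 1 of 5 tested at 31 days and rose in 1 at 21 days, and Ncr1 and Klrb1c were at or below the array median on all 12 arrays. The mean level of the 5 was 5.43 to 5.92 in MEC1 mice against 5.52 to 5.87 in control mice at 31 days and 5.66 to 5.97 against 5.26 to 5.79 at 21 days. In control mice Ebf1 of the B cell list (at most 3.77) and Eomes of this list (at most 3.57) lay below all array medians (3.80 to 4.40). Both rose on both days, but passed the filter on dim transcripts only through MEC1 arrays. A rise in them was favoured in advance, and the counts of risen genes in these 2 lists are no evidence of direction. Of megakaryocyte genes 1 of 4 tested fell at 31 days, and of stromal and endothelial genes 1 of 4, with 0 at 21 days in both lists. The part of these cells and of the array-wide shift in the chemokine changes was not tested. Whether RNA of the human graft reached the mouse probes of the B cell list was not tested either.

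Other CC chemokine genes that passed were higher with MEC1. Of 13 other CC chemokine genes 8 were tested, of which 5 rose and 0 fell at 31 days (4 and 0 without MEC1 31 d replicate 3; background 22.6% risen) and 1 rose at 21 days (background 1.83%). Ccl8, a ligand of CCR8 in mice, averaged 4.76 ± 0.21 in MEC1 mice and 3.08 ± 0.09 in control mice at 31 days, and 3.41 ± 0.24 against 3.25 ± 0.07 at 21 days (SD, n = 3 each). It rose by 1.68 at 31 days (SE 0.16, adjusted p = 0.000199), changed by 0.16 at 21 days (adjusted p = 0.554), and was higher at 31 than at 21 days within MEC1 mice by 1.35 (adjusted p = 0.0162). Ccl12, a mouse ligand of CCR2, rose by 0.53 at 31 days (adjusted p = 0.0109) and by 0.80 at 21 days (adjusted p = 0.0132). The eosinophil chemokine gene Ccl11 and the CCR4 ligand gene Ccl17 each rose by 0.71 at 31 days, with adjusted p of 0.00513 and 0.0085. The levels of these genes were low, and clusters as dim as Ccl5 had a median change of 0.38 at 31 days. Of such clusters 35.1% rose on that day. In control mice Ccl8 (at most 3.32) and Ccl12 (at most 3.77) lay below all array medians (3.80 to 4.40). Both thus passed the filter on dim transcripts only through MEC1 arrays. A rise in them was favoured in advance, and the counts of risen genes are no evidence of direction. Among 7 tested genes of 13 other receptors, Ccr7, which guides cells to lymph nodes and is carried by dendritic and B cells, rose by 3.08 at 31 days (SE 0.40, adjusted p = 0.000559), averaging 9.12 ± 0.86 in MEC1 mice and 6.04 ± 0.23 in control mice (SD, n = 3 each). Whether RNA of the human B cell graft reached the mouse probes of Ccr7 was not tested. Ccr10 rose by 0.72 at 31 days (adjusted p = 0.0322), and the atypical receptor Ccrl2 fell by 1.31 at 21 days (adjusted p = 0.0278). In the receptor list 2 genes thus rose and 0 fell at 31 days, against 1 and 1 without MEC1 31 d replicate 3. In that fit Ccr7 still passed at 31 days (2.67, adjusted p = 0.00184) and also at 21 days (1.36, adjusted p = 0.0363). Ccr10 did not pass in it (0.76, adjusted p = 0.0618). Ackr1, an atypical receptor named after its values were seen, fell in that fit by 0.92 at 31 days (adjusted p = 0.0231). On MEC1 arrays Ackr1 was at most 3.89 at 31 days and 3.25 at 21 days, below their medians (at least 4.13 and 3.93). It thus passed the filter on dim transcripts only through control arrays. A fall in Ackr1 was favoured in advance, and its call is no evidence of direction.

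Genes that carry the signal of chemokine receptors fell at 31 days in 13 of 16 tested (9 without MEC1 31 d replicate 3) and rose in 0, with a median of -1.11. At 21 days 2 of 16 fell (5 without that array), with a median of -0.55. Of all tested clusters 21.1% fell at 31 days and 2.51% at 21 days. Clusters within 1 log2 unit of the control means of Ccr1, Ccl9 and Ccr2 fell in 46.8%, 57.3% and 47.1% at 31 days. Their medians on that day were -0.69, -0.98 and -0.98. At 21 days 8.02%, 7.13% and 2.78% of them fell. Arrb1, an arrestin that shuts off and internalises receptors, averaged 7.08 ± 0.45 in MEC1 mice and 9.98 ± 0.13 in control mice at 31 days, and 8.12 ± 0.37 against 9.55 ± 0.41 at 21 days (SD, n = 3 each). It fell by 2.91 at 31 days (adjusted p = 0.000199) and by 1.44 at 21 days (adjusted p = 0.0227). Rgs2, a brake on G protein signals, fell by 2.84 at 31 days (adjusted p = 0.000526), and its relative Rgs1 by 1.72 at 21 days (adjusted p = 0.0404). Dock2 and Ptk2b, which couple receptors to migration, changed by -1.41 (adjusted p = 0.00301) and -1.15 (adjusted p = 0.00251) at 31 days. Among 10 tested genes that control the stability or transcription of chemokine mRNA, 5 fell and 0 rose at 31 days (4 and 0 without MEC1 31 d replicate 3), and 2 fell at 21 days (3 without it). The count at 31 days is near the share of fallen clusters of like level given above. Zfp36, whose product tristetraprolin speeds the decay of cytokine mRNAs, averaged 9.69 ± 0.96 with MEC1 and 12.41 ± 0.23 without at 31 days (SD, n = 3 each) and fell by 2.72 (adjusted p = 0.00269). Its relative Zfp36l2 fell by 1.42 at 31 days (adjusted p = 0.00123) and by 1.19 at 21 days (adjusted p = 0.0202). Rc3h1, which encodes the mRNA decay factor Roquin-1, fell by 1.28 (adjusted p = 0.000736) and 0.95 (adjusted p = 0.0202), and Elavl1, the stabilising factor HuR, by 1.20 at 31 days (adjusted p = 0.00214).

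**Figure D3:**
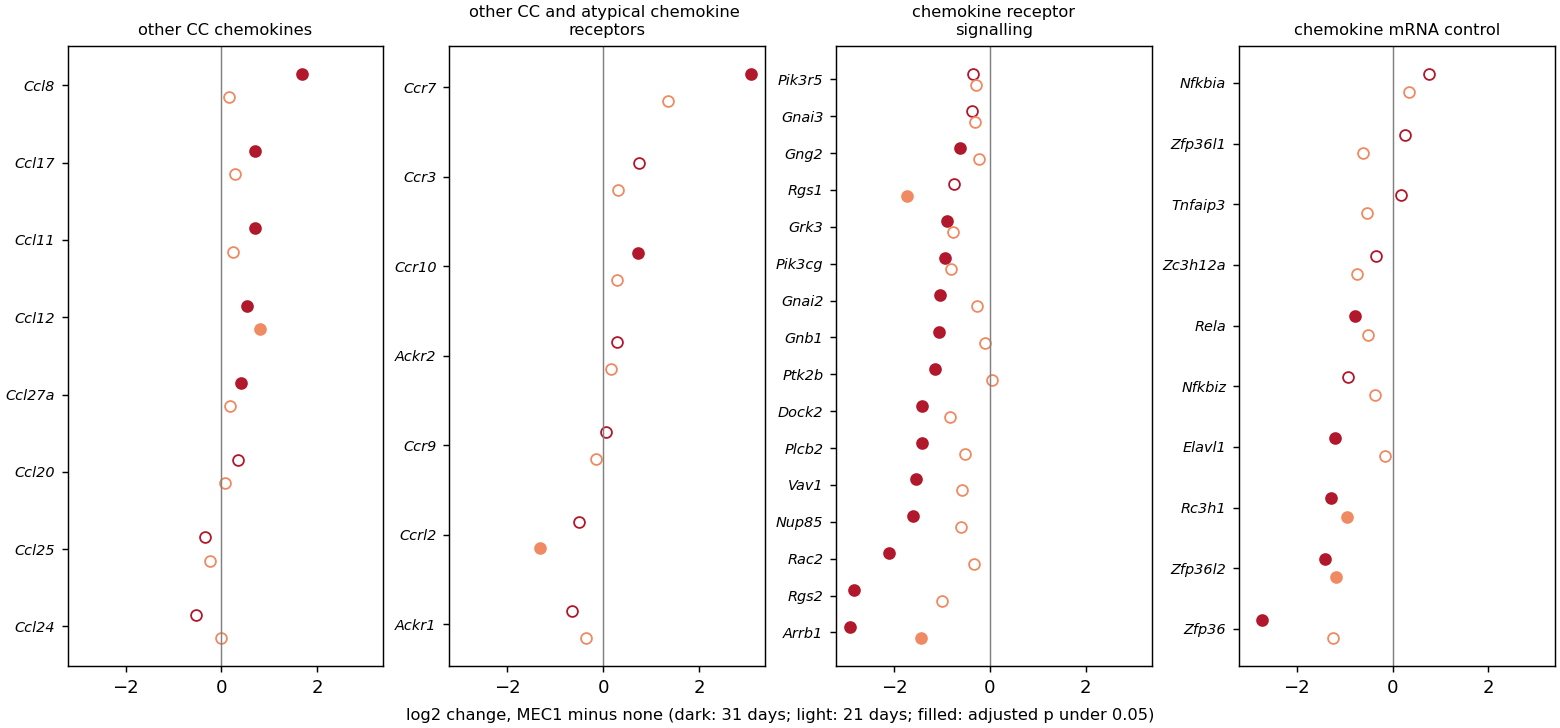
Log2 change with MEC1 (horizontal axes, MEC1 minus no MEC1) of the tested genes of 4 related lists at 31 days (dark) and 21 days (light), filled where the adjusted p was under 0.05. Ccl8 (1.68) and Ccr7 (3.08) stand highest in their lists at 31 days, and 13 of 16 signalling genes are filled at 31 days, all of them below 0.

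The genes whose 12 values ran closest to each chemokine were found among 13851 named genes by the root mean square difference of values centred on the mean of each gene, which takes in the size of the changes. For Ccl3 the closest was Klf4, a transcription factor of monocyte differentiation, at 0.513 log2 units, with changes of -3.36 at 31 days and -1.79 at 21 days, followed by Clec7a, the beta-glucan receptor Dectin-1, and Pld4. For Ccl6 it was Dusp6, a phosphatase that switches off ERK, at 0.253 (-2.12 and -2.34), then Il10ra and Sulf2. For Ccl9 it was Tnfrsf1b, a receptor for tumour necrosis factor, at 0.211 (-1.67 and -1.90), then Niban1 and S100a4. Ccl9 ranked 7 among the genes like Ccl6, and Ccl6 ranked 12 among those like Ccl9, both at a difference of 0.362. Ccl2 ran with Minpp1, Hectd4 and Ifrd2, Ccl4 with Foxn3, Ube2j1 and Slc45a4, and Ccr2 with Serinc3, Derl1 and Kctd20. The points share their arrays and the array-wide shift, so these are descriptions.

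**Figure D4:**
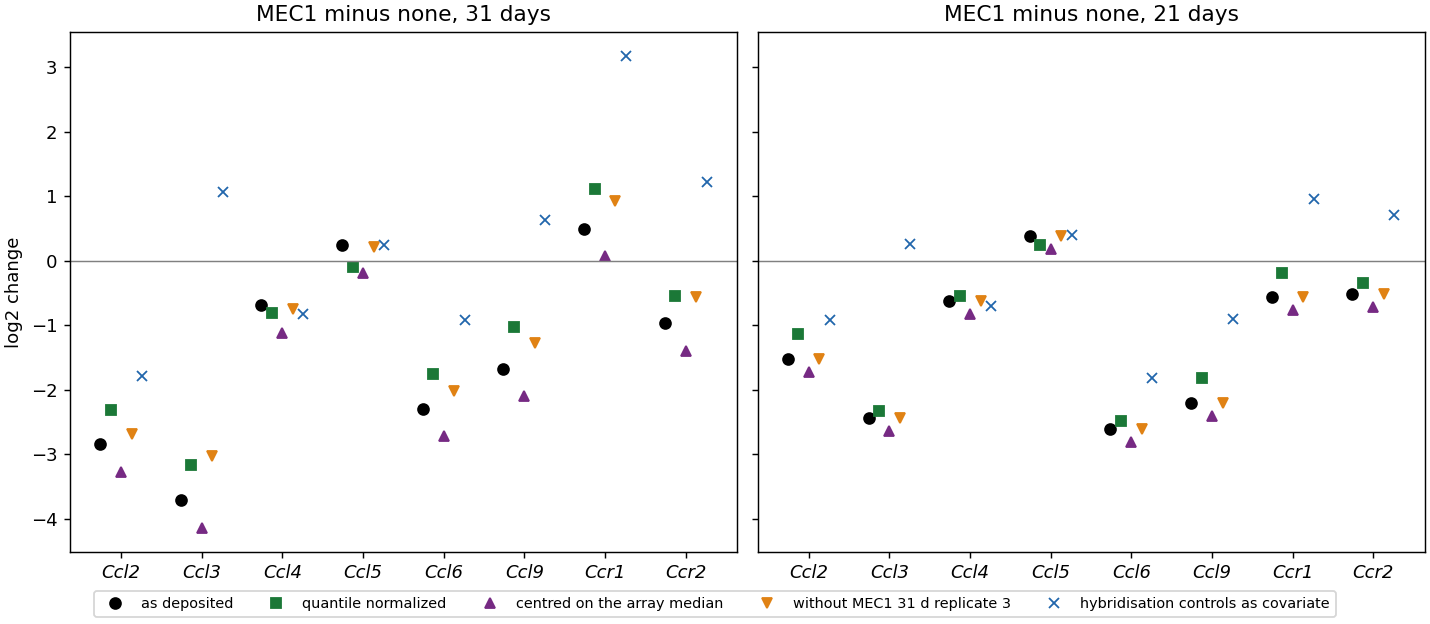
Log2 change with MEC1 (vertical axis, MEC1 minus no MEC1) of the 8 tested genes (horizontal axis) at 31 days (left) and 21 days (right) under 5 ways of treating the values. Ccl2 and Ccl6 lie below 0 under all 5 on both days, while Ccl3 lies above 0 only with the hybridisation controls as a covariate (1.07 at 31 days and 0.27 at 21 days).

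The falls of Ccl2, Ccl3, Ccl6 and Ccl9 at 31 days and of Ccl6 and Ccl9 at 21 days kept their direction and passed with quantile normalization, centring on the array median, no filter and only the 6 arrays of the day. The level of the hybridisation controls was tied to the groups (92.1% of its variance was between them), and in a fit that took it in as a covariate 0 of the 8 genes passed on either day, with 7 clusters passing at 31 days and 4 at 21 days over the whole array. In that fit the log2 change of Ccl6 was -0.91 at 31 days (adjusted p = 0.689) and -1.82 at 21 days (adjusted p = 0.163), and that of Ccl2 -1.78 at 31 days (adjusted p = 0.708). At 31 days the sign turned for Ccl3 (1.07, adjusted p = 0.804), Ccl9 (0.63, adjusted p = 0.766) and Ccr2 (1.22, adjusted p = 0.523), and at 21 days for Ccl3 (0.27, adjusted p = 0.926), Ccr1 (0.96, adjusted p = 0.572) and Ccr2 (0.72, adjusted p = 0.495), while Ccl9 had -0.90 at 21 days (adjusted p = 0.351).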

How the data were processed

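Bone marrow monocytes and macrophages, purified magnetically from 12 mice, 3 in each of 4 groups set by the labels, were measured on Clariom D mouse arrays. The deposited values were log2 intensities per transcript cluster; the submitters' processing notes name Affymetrix Expression Console and RMA, with no version. The array build is not given in the sources used here. Of 72688 features 6732 controls were left out. Of the 65956 clusters left, 31438 had 1 gene symbol in the platform annotation, 1312 several and 33206 none, and older symbols were updated through RefSeq. Clusters above the array median on at least 3 arrays (37240) were tested.

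Linear models (limma 3.58.1, R 4.3.3) held 1 mean for each of the 4 groups. P-values are two-sided, adjusted by Benjamini-Hochberg over all tested clusters, with a threshold of 0.05. Single values per array were compared by exact permutation tests (SciPy 1.17.1). The number of arrays limits the precision. The fit was tested on simulated data. No identical arrays were found: replicates correlated at 0.9632 to 0.9927.

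The 9 genes and the lists were chosen with earlier results of these data known. Named from the other lists were up to 4 called genes per list and day with the smallest adjusted p, plus Csf1r and Lyz2, and for each called gene the 3 genes with the most alike values. Alternatives were no filter, quantile normalization, centring, only the arrays of a comparison, a replicate block, the hybridisation controls as covariate, and each array left out. The list counts without MEC1 31 d replicate 3 were added after seeing the data.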

Additional observations from a re-analysis of the deposited data

How the results depend on the processing

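Without the filter the 31 day comparison called 30065 transcript clusters (21744 higher, 8321 lower) against 16297 (8430 higher, 7867 lower); centring on the array median gave 2785 higher and 13739 lower, and shifted the median of all clusters to -0.39 (31 days) and -0.18 (21 days). At 21 days, 1615 clusters (681 higher, 934 lower) became 444 higher and 1461 lower with centring. Quantile normalization called 10646 at 31 days, 1066 at 21 days (608 higher, 458 lower), 17 for the difference between days (1 as reported), 191 for 31 against 21 days with MEC1 (84) and 10 without MEC1 (3). It turned Ccl5 at 31 days to -0.10, and centring to -0.19; centring turned Ccl6, 31 against 21 days with MEC1, to -0.08 and called 20 clusters there. Only the arrays of a comparison called 454 clusters at 21 days, 1 for 31 against 21 days with MEC1 and 0 without MEC1. Ccl3 at 21 days did not pass with no filter (adjusted p = 0.0649) or only these arrays (0.0731).

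With the hybridisation-control covariate 0 of the 9 genes passed at 31 days and 0 at 21 days, and 7, 4, 4, 10 and 15 clusters passed in the 5 comparisons. Its reversed changes were Ccl3 1.07, Ccl9 0.63 and Ccr2 1.22 at 31 days; Ccl3 0.27, Ccr1 0.96 and Ccr2 0.72 at 21 days; Ccl3 0.81 and Ccr2 0.50 for the difference; Ccr2 0.17 with MEC1 and Ccl2 -0.04 without MEC1 between days. The cause was not tested.

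Deviations of same-numbered mice from their group means correlated at -0.011, 0.16 and 0.018 at 31 days and at 0.363, -0.169 and 0.415 at 21 days. Mice with unlike numbers had correlations from -0.153 to 0.107 at 31 days and from -0.49 to 0.328 at 21 days. The highest value of each day was that of a same-numbered pair, but not all such pairs were high. These few values do not settle whether mice are paired by the replicate number. As a replicate block it called 831 clusters at 21 days and 15 for 31 against 21 days with MEC1; Ccl2 at 21 days then passed (adjusted p = 0.0417) and Ccl3 did not (0.0694).

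Leaving out 1 array at a time gave 4 to 6 genes of the 9 called at 31 days and 2 to 4 at 21 days, and 0 in the other 3 comparisons. Clusters called ranged from 10647 (without control 31 d replicate 2) to 16847 at 31 days, from 330 (without MEC1 21 d replicate 1) to 2883 (without MEC1 21 d replicate 3) at 21 days, from 1 to 5 for the difference, from 7 to 70 with MEC1 and from 1 to 12 without MEC1 between days. Changes that crossed 0 were Ccl4 for the difference (-0.18 to 0.08), Ccr1 (-0.01 to 0.78), Ccl5 (-0.09 to 0.03) and Ccl6 (-0.11 to 0.37) between days with MEC1, and Ccl2 (-0.34 to 0.33), Ccr2 (-0.23 to 0.03) and Ccl9 (-0.12 to 0.02) without; none of them passed. Averaging clusters changed nothing for the 9 genes, which have 1 cluster each. Low signal limits Ccl4, Ccl5 and Ccl7 most.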

Other observations

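MEC1 21 d replicate 1 had the lowest value of its group for 8 of the 8 tested genes, and MEC1 31 d replicate 3 for 6 of 8 (Ccl2, Ccl3, Ccl6, Ccl9, Ccr1 and Ccr2). Among clusters within 1 log2 unit of the control mean of Ccl6, 50.9% fell and 6.21% rose at 31 days, and 2.62% fell and 2.07% rose at 21 days; for Ccl9 57.3% fell and 7.01% rose at 31 days, and 7.13% fell and 4.32% rose at 21 days.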
